A study of Rattus norvegicus with 8 samples.

Results

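The expression of 10 genes of endothelial cell junctions and of the endothelial surface was followed in rat lung, in lungs labelled as treated with monocrotaline (MCT) and in control lungs. The genes were Cdh5, Pecam1, Cldn5, Esam, Emcn, Clec14a, Cd93, Mmrn2, Robo4 and Egfl7, and each was matched to the table by its gene name. Of these 10 genes, 9 had a row in the deposited table of 32623 annotated genes, and all 9 were among the 16715 genes with enough reads to test. No row carried the name Pecam1, so the platelet and endothelial adhesion molecule PECAM-1 was not analysed here.

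MCT is a plant alkaloid used in rats to model pulmonary hypertension, and the series' stated purpose was to look for a marker of that disease. RNA sequencing was done on 4 MCT libraries and 4 control libraries of whole lung tissue of Rattus norvegicus. The labels give no dose, time after treatment, strain, sex or age, and do not say what the control rats received or whether each library came from a separate animal. The p-values therefore reflect how much these libraries vary, which may be partly technical.

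Endothelial cells line blood vessels and are held together by adherens junctions, built on VE-cadherin, and by tight junctions, built on claudins and immunoglobulin-like proteins. Their inner face carries sialomucins and lectin-like receptors that meet the blood, and their outer face is anchored to matrix proteins that some of these receptors bind. In the lung this layer keeps fluid and blood cells out of the airspaces.

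The surface genes differed in direction. Emcn, which encodes the sialomucin endomucin, rose in MCT lungs to 2.22 times its control level, whereas Clec14a, which encodes a lectin-like receptor, fell 4.12-fold and Esam, which encodes an endothelial adhesion molecule, fell by 26.3%. Cdh5, Cd93, Mmrn2, Egfl7, Cldn5 and Robo4 did not pass edgeR's quasi-likelihood test, where passing means an adjusted p (Benjamini-Hochberg, over all genes tested) under 0.05. Of the 9 tested, 1 member rose and 2 fell, where 20.5% of all genes tested passed in either direction, 11% higher and 9.45% lower. The median log2 fold change of the 9 members, MCT over control, was -0.44, against 0.026 over all genes tested. The members and the gene lists below were chosen with earlier results of these data known, so their shares and medians may reflect that choice. The ranges of FPKM (the number of fragments of a gene scaled to its transcript length and to the library's depth) did not overlap between the groups for 4 members, namely Clec14a, Esam, Emcn and Robo4, and for 25% of all genes tested. In whole tissue, fewer endothelial cells and less RNA per endothelial cell cannot be told apart.

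**Figure D1:**
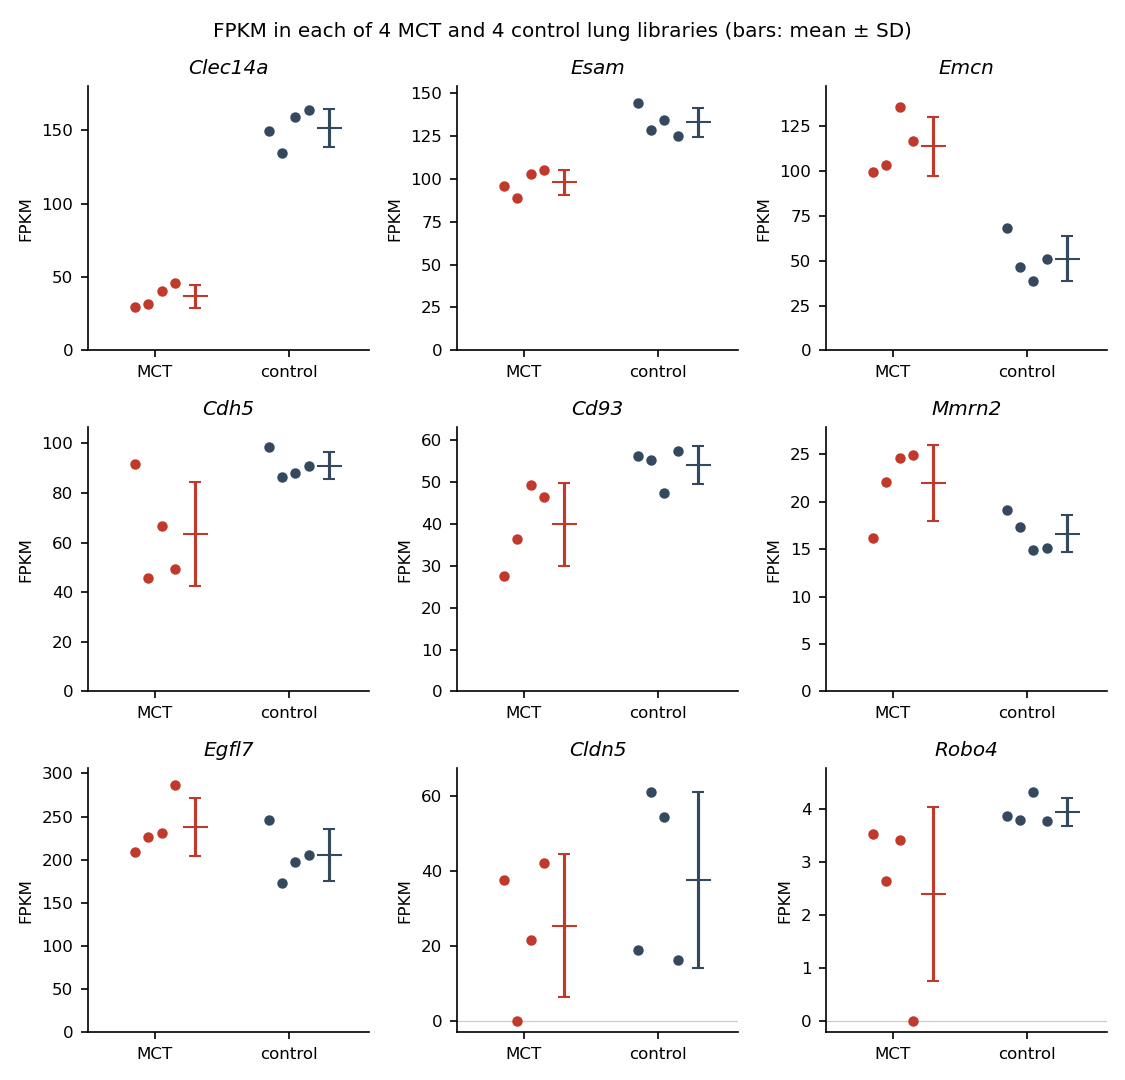
FPKM of the 9 measured members in each library (points; MCT 1 to 4 and control 1 to 4 from left to right within a group), with the mean and SD of each group as bars and a separate linear axis for each gene. Clec14a and Esam lie lower and Emcn higher in all 4 MCT libraries than in any control library, while Cldn5 and Robo4 each have 1 MCT library listed at 0.

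The libraries held about 11.3 to 18.1 M counted read pairs in MCT lungs and about 10.8 to 14.8 M in control lungs. Behind each library's value of the members other than Cldn5 and Robo4 stood 617 to 7848 read pairs. The summed level of 12 other endothelial genes was 368 to 453 FPKM in MCT lungs and 659 to 751 FPKM in control lungs, and 7 of the 12 were lower by edgeR's quasi-likelihood test, where 9.45% of all genes tested were lower. The other 5, Tie1 (log2 fold change -0.25), Kdr (-0.32), Erg (-0.31), Nos3 (0.11) and Fli1 (0.16), did not pass. This list was chosen with earlier results of these data known, so its share of lower genes is no independent result. The genes that fell included Vwf, the clotting factor carrier of endothelium, with 74.8 ± 15.6 FPKM in MCT lungs and 132 ± 17.3 FPKM in control lungs (SD, n = 4 each; log2 fold change -0.82, adjusted p = 0.00828). Tek, the angiopoietin receptor, showed the smallest p of that list, with 21.2 ± 1.84 FPKM in MCT lungs and 130 ± 17.7 FPKM in control lungs (SD, n = 4 each; log2 fold change -2.61, adjusted p = 9.47e-06).

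Cdh5 (ENSRNOG00000013324, chromosome 19, 1023683 to 1074365, minus strand, Rnor_6.0) encodes VE-cadherin, the adhesion protein of endothelial adherens junctions. It stood at 91.82, 45.78, 66.78 and 49.24 FPKM in MCT libraries 1 to 4, against 98.71, 86.59, 87.95 and 90.88 FPKM in control libraries 1 to 4. MCT libraries 2 to 4 were below every control library, while MCT 1 lay among the controls. Its means were 63.4 ± 21.1 FPKM in MCT lungs and 91 ± 5.42 FPKM in control lungs (SD, n = 4 each). The log2 fold change of -0.52 (SE 0.21) did not pass edgeR's test over all 8 libraries (adjusted p = 0.11). This depended on MCT 1 and on the test: without MCT 1 the fold change was -0.77 (adjusted p = 0.00447), and without both MCT 1 and control 1 it was -0.73 (adjusted p = 0.0107). DESeq2 called it on all 8 libraries (log2 fold change -0.54, adjusted p = 0.033). MCT 1 and control 1 also had the highest summed level of ciliated cell genes in their groups, 693 FPKM against 341 to 539 FPKM in the other MCT libraries, and 748 FPKM against 557 to 668 FPKM in the other control libraries. Most of that sum was a single gene, Tppp3, at 468 ± 133 FPKM in MCT lungs and 612 ± 81.2 FPKM in control lungs (SD, n = 4 each). Highest sums of other lists were not particular to these libraries. MCT 1 had the highest myeloid sum of its group (18603 FPKM, against 16837 FPKM in MCT 2). But MCT 2, not MCT 1, had the highest sums of lymphatic, leukocyte, epithelial, and muscle and pericyte genes among MCT libraries. Control 1 had the highest sums of platelet genes (47.2 FPKM) and of muscle and pericyte genes (879 FPKM) of its group. The part of these differences in the Cdh5 values was not tested.

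Esam (ENSRNOG00000033217, chromosome 8, 39997875 to 40008809, plus strand) encodes an immunoglobulin-like adhesion molecule of endothelial tight junctions that platelets also carry. It stood at 95.60, 88.94, 102.80 and 104.88 FPKM in MCT libraries 1 to 4, against 143.91, 128.56, 134.27 and 124.63 FPKM in control libraries 1 to 4. All MCT libraries were below all control libraries. Its means were 98.1 ± 7.26 FPKM in MCT lungs and 133 ± 8.37 FPKM in control lungs (SD, n = 4 each), a log2 fold change of -0.44 (SE 0.08, edgeR adjusted p = 0.00576). The call held under all 19 alternatives, with fold changes from -0.48 to -0.40. Platelet genes were low in these lungs, with Itga2b at 2.23 ± 1.2 FPKM in MCT lungs and 2.5 ± 1.04 FPKM in control lungs and Gp9 at 0.19 ± 0.144 FPKM in MCT lungs and 0.41 ± 0.369 FPKM in control lungs (SD, n = 4 each). The summed level of 7 platelet genes was 59.7 to 70.2 FPKM in MCT lungs and 24 to 47.2 FPKM in control lungs. Most of it was Pf4, a platelet chemokine that rose to 55.6 ± 4.72 FPKM in MCT lungs, against 23.6 ± 9.48 FPKM in control lungs (SD, n = 4 each; edgeR adjusted p = 0.0128). The other 6 genes summed to 7.43 to 10.2 FPKM in MCT lungs and 9.02 to 14.2 FPKM in control lungs. Of the 6 platelet genes tested, Pf4 was higher and Itgb3, an integrin chain, was lower (log2 fold change -0.47, edgeR adjusted p = 0.032), with a list median of -0.31. Over all genes tested, 11% were higher and 9.45% lower. The part of platelets in the Esam values was not tested.

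Cldn5 (ENSRNOG00000045811, chromosome 11, 86356294 to 86357718, minus strand) encodes claudin-5, the main claudin of endothelial tight junctions. It stood at 37.62, 0, 21.62 and 42.28 FPKM in MCT libraries 1 to 4, against 18.84, 61.24, 54.40 and 16.29 FPKM in control libraries 1 to 4. Within each group the libraries differed more than the groups did, and MCT 2 was listed at 0. The log2 fold change of -0.58 (SE 1.18, edgeR adjusted p = 0.781) gives no direction, and its 95% interval ran from -3.31 to 2.15.

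All 1425 bases of the annotated Cldn5 gene lie inside Cdc45 (ENSRNOG00000050071, 86329012 to 86358453, plus strand), a DNA replication gene on the opposite strand. Cdc45 stood at 86.3, 87.4, 87.2 and 88.6 FPKM in MCT libraries 1 to 4, against 144, 106, 153 and 124 FPKM in control libraries 1 to 4 (log2 fold change -0.59, SE 0.11, edgeR adjusted p = 0.00646). Other DNA replication genes, chosen after their values were seen, were far lower in level and higher in MCT lungs: Mcm5 stood at 10.1 ± 2.74 FPKM in MCT lungs and 3.15 ± 0.718 FPKM in control lungs, and Cdc6 at 1.77 ± 0.432 FPKM in MCT lungs and 0.403 ± 0.121 FPKM in control lungs (SD, n = 4 each; edgeR adjusted p = 0.00175 for Mcm5 and 0.00165 for Cdc6). Without strand, reads of Cldn5 and of Cdc45 at these bases cannot be told apart, and the sources used here do not say whether the counting used strand. The source of the reads in the Cdc45 row was not tested, and genes chosen after their values were seen cannot settle it. Both rows together came to 634, 577, 609 and 651 CPM (counts scaled to the library's total) in MCT libraries 1 to 4, against 987, 795, 1098 and 850 in control libraries 1 to 4. The sum, which was added after seeing the data, was lower in every MCT library than in any control library (log2 fold change -0.59, SE 0.11, edgeR adjusted p = 0.0061). The Cldn5 row held 0 to 9.62% of that sum in MCT libraries and 2.84 to 11.4% in control libraries.

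Emcn (ENSRNOG00000022910, chromosome 2, 242634399 to 242714182, plus strand) encodes endomucin, a sialomucin of capillary and venous endothelium that keeps leukocytes from attaching. It stood at 99.60, 103.08, 135.48 and 116.61 FPKM in MCT libraries 1 to 4, against 68.47, 46.56, 38.86 and 50.70 FPKM in control libraries 1 to 4. Every MCT library was above every control library. Its means were 114 ± 16.3 FPKM in MCT lungs and 51.1 ± 12.5 FPKM in control lungs (SD, n = 4 each), a log2 fold change of 1.15 (SE 0.17, edgeR adjusted p = 0.00204). The fold change ran from 1.04 to 1.37 under the 19 alternatives, past the threshold in each.

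Clec14a (ENSRNOG00000022697, chromosome 6, 79303304 to 79306443, minus strand) encodes a receptor of the C-type lectin group that also holds CD93 and thrombomodulin, and is found on endothelium. It stood at 29.61, 31.60, 40.25 and 46.22 FPKM in MCT libraries 1 to 4, against 149.48, 134.39, 159.25 and 164.15 FPKM in control libraries 1 to 4. The highest MCT library was thus well below the lowest control library. Its means were 36.9 ± 7.73 FPKM in MCT lungs and 152 ± 13.1 FPKM in control lungs (SD, n = 4 each), a log2 fold change of -2.04 (SE 0.14, edgeR quasi-likelihood test, Benjamini-Hochberg adjusted p = 0.000129). Under the 19 alternative settings the fold change ran from -2.17 to -1.96 and the call held in each.

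The promoter windows of these genes are shown because Clec14a and Emcn had the largest called fall and rise of the members. Each window is 300 bases, from 250 before to 50 after the gene's start, taken from RefSeq on the GRCr8 assembly, at chr6:81619507-81619806 on the minus strand for Clec14a and chr2:228564289-228564588 on the plus strand for Emcn. Capitals mark GGAA, the core letters bound by ETS factors, on either strand, so that TTCC is GGAA on the other strand.
Clec14a promoter: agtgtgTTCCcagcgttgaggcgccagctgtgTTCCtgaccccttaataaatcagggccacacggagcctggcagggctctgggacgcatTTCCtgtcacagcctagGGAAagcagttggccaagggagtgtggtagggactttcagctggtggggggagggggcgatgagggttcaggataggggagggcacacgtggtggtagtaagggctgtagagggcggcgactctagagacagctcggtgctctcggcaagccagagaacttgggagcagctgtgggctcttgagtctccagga
Emcn promoter: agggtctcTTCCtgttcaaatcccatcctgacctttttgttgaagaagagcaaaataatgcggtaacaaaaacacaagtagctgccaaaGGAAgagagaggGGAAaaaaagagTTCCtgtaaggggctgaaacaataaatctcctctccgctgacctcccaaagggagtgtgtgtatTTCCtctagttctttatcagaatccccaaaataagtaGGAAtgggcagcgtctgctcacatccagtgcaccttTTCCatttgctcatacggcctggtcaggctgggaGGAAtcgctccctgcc
The Clec14a window held 4 matches to GGAA and the Emcn window 8. GGAA was found in 95.8% of the 33469 rat promoter windows in the same table, with a median of 3 matches, so its presence does not set these genes apart. The longer ETS letters CCGGAA, found in 15% of all windows, and the GATA letters AGATAA, found in 11.6%, were in neither window on either strand. The SOX letters AACAAT, found in 11.7% of all windows, were in the Emcn window once and not in the Clec14a window. Windows were available for 6 members, and those of Egfl7 (which has 2 starts in the table), Robo4, Cldn5 and Mmrn2 held 1 to 4 matches to GGAA.

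Cd93 (ENSRNOG00000024799, chromosome 3, 142778770 to 142783774, minus strand) encodes a lectin-like receptor of endothelium and myeloid cells that binds the matrix protein multimerin-2. It stood at 27.62, 36.45, 49.24 and 46.41 FPKM in MCT libraries 1 to 4, against 56.28, 55.24, 47.43 and 57.50 FPKM in control libraries 1 to 4. The groups overlapped, since MCT 3 was above control 3. Its log2 fold change of -0.44 (SE 0.16) did not pass edgeR's test (adjusted p = 0.0838) but did pass DESeq2's (adjusted p = 0.0316). Of 9 myeloid genes tested, 5 were higher in MCT lungs by edgeR and 4 did not pass, where 11% of all genes tested were higher. C1qc, a complement gene of macrophages, rose to 172 ± 48.2 FPKM in MCT lungs, against 48 ± 10.5 FPKM in control lungs (SD, n = 4 each, adjusted p = 0.00127). Lyz2, the most abundant gene of the myeloid list, did not pass (log2 fold change -0.10, edgeR adjusted p = 0.801). It stood at 13620 ± 4072 FPKM in MCT lungs and 14607 ± 1896 FPKM in control lungs (SD, n = 4 each). Lyz2 thus made up most of the list's summed level, which overlapped between the groups and says little about the other genes. The part of myeloid cells in the Cd93 values was not tested. The annotation used in the table lists this Cd93 row as a processed transcript, not as protein coding.

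Mmrn2 (ENSRNOG00000051977, chromosome 16, 10727571 to 10749382, plus strand) encodes multimerin-2, a matrix protein of the vessel wall to which CD93 and CLEC14A bind. It stood at 16.22, 22.07, 24.57 and 24.97 FPKM in MCT libraries 1 to 4, against 19.09, 17.36, 14.92 and 15.15 FPKM in control libraries 1 to 4. MCT 2 to 4 were above every control library, and MCT 1 was not. The log2 fold change of 0.40 (SE 0.14) did not pass edgeR's test over all 8 libraries (adjusted p = 0.0771). It passed without MCT 1 (0.51, adjusted p = 0.0112), without both MCT 1 and control 1 (0.58, adjusted p = 0.0079) and by DESeq2 (0.39, adjusted p = 0.0498). The receptors and the ligand thus had log2 fold changes of -2.04 for Clec14a, -0.44 for Cd93 and 0.40 for Mmrn2, and the fall passed edgeR's test for Clec14a alone of these.

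Robo4 (ENSRNOG00000049289, chromosome 8, 39083327 to 39093277, minus strand) encodes an endothelial receptor of the roundabout family known to stabilise the vessel barrier. It was the member of lowest level, at 3.54, 2.64, 3.42 and 0 FPKM in MCT libraries 1 to 4, against 3.87, 3.81, 4.34 and 3.78 FPKM in control libraries 1 to 4. All MCT libraries were below all control libraries, but MCT 4 was listed at 0 and no library had more than 172 read pairs. The log2 fold change was -0.72 (SE 1.06, edgeR adjusted p = 0.69), and without MCT 4 it was -0.31 (adjusted p = 0.223).

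Another row, LOC100911068 (ENSRNOG00000050964, chromosome 8, 39878955 to 39890942, plus strand), is described in the table as roundabout homolog 4-like and lies 786 kb away. The RefSeq gene table gives its gene ID the symbol Robo4, so reads may be split between the rows and both are uncertain. The RefSeq promoter window of Robo4 on GRCr8 is on the plus strand, like LOC100911068 and unlike the Robo4 row. Which row is the gene was not tested. LOC100911068 stood at 4.77, 3.18, 4.94 and 4.81 FPKM in MCT libraries 1 to 4, against 2.64, 4.73, 5.36 and 4.27 FPKM in control libraries 1 to 4. It was not at 0 in MCT 4. The sum of both rows was 27.1, 18.7, 27 and 16.4 CPM in MCT libraries 1 to 4, against 20.7, 27.6, 31.4 and 25.9 in control libraries 1 to 4, and the groups overlapped (log2 fold change -0.25, SE 0.20, edgeR adjusted p = 0.431). Zeros in a single library were not particular to these members, as 30 rows of the table had exactly 1 library at 0 with at least 100 count units in each of the other 7.

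**Figure D2:**
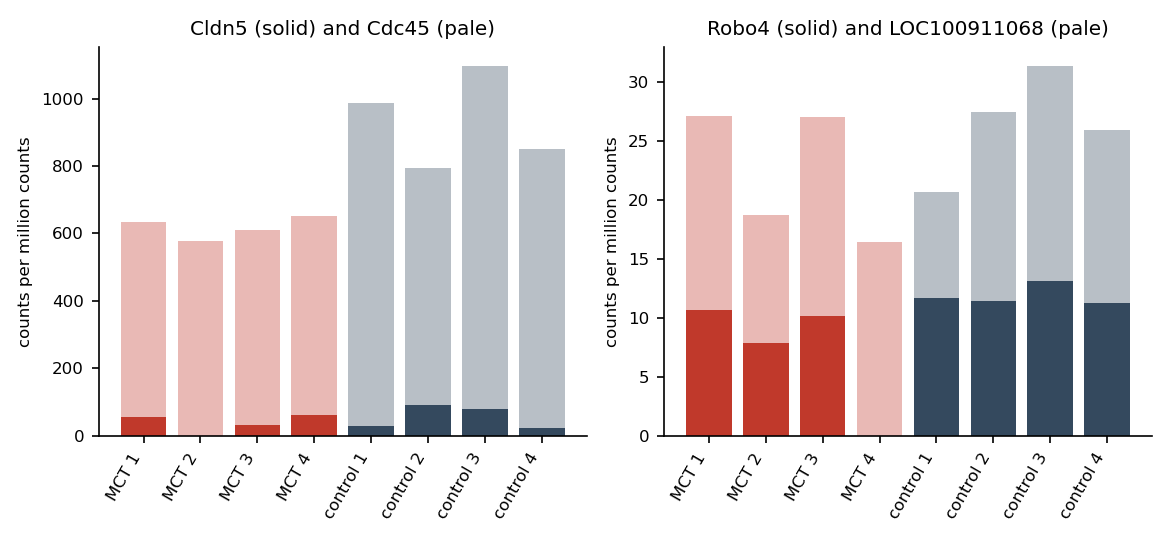
CPM in each library for the Cldn5 row (solid) stacked with the Cdc45 row (pale), left, and for the Robo4 row (solid) stacked with the LOC100911068 row (pale), right, on linear axes from 0. The Cldn5 and Cdc45 sum is 577 to 651 in MCT libraries and 795 to 1098 in control libraries, and the solid parts are absent in MCT 2 on the left and MCT 4 on the right.

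Egfl7 (ENSRNOG00000019388, chromosome 3, 4034921 to 4043936, plus strand) encodes a secreted protein that endothelial cells lay down in the vessel wall, and was the most abundant member in both groups. It stood at 209.33, 226.00, 231.20 and 286.10 FPKM in MCT libraries 1 to 4, against 245.88, 172.83, 198.00 and 205.92 FPKM in control libraries 1 to 4. The groups overlapped. The log2 fold change of 0.21 (SE 0.12, 95% interval -0.067 to 0.49) did not pass edgeR's test (adjusted p = 0.271).

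The microRNA miR-126 lies within the Egfl7 gene and is a known regulator of endothelial cells. Its mature sequences from RefSeq on GRCr8, all on chromosome 3, are shown because the same stretch of the gene has a row of its own in the table, and capitals mark the seed, bases 2 to 8.
rno-miR-126a-3p: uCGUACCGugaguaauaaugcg
rno-miR-126a-5p: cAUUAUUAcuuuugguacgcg
rno-miR-126b: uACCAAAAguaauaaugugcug
The 3 seeds differ. The 3p sequence (chr3:29813219-29813240) and the 5p sequence (chr3:29813182-29813202) are on the plus strand, the strand of Egfl7, and miR-126b (chr3:29813177-29813198) is on the minus strand, where it shares 17 positions with the 5p sequence. The table has a row named Mir126a (ENSRNOG00000035591, 4042464 to 4042581 on Rnor_6.0, 118 bases inside Egfl7), annotated on the minus strand. That row fell to 12.1, 13.2, 16.4 and 11.3 FPKM in MCT libraries 1 to 4, against 21.2, 33.8, 39.1 and 26.3 FPKM in control libraries 1 to 4 (log2 fold change -1.19, SE 0.27, edgeR adjusted p = 0.0157). All 4 MCT libraries were below all 4 control libraries, while the ranges of Egfl7 itself overlapped. The Mir126a row rests on few reads. It held 62, 78, 91 and 93 count units in MCT libraries 1 to 4, against 141, 207, 194 and 129 in control libraries 1 to 4, where 1 read pair was worth about 3.67 units. Its call was not followed under the alternative settings. The libraries were made from RNA bound to oligo(dT) beads, which select long polyadenylated RNA, so the row gives reads over the precursor's position and not the level of the mature microRNA. The sources used here do not say how reads shared by overlapping rows were assigned.

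The order of the members by mean FPKM differed between the groups. In MCT lungs it was Egfl7, Emcn, Esam, Cdh5, Cd93, Clec14a, Cldn5, Mmrn2 and Robo4, and in control lungs it was Egfl7, Clec14a, Esam, Cdh5, Cd93, Emcn, Cldn5, Mmrn2 and Robo4. Clec14a thus stood in place 6 in MCT lungs and in place 2 in control lungs, while Emcn stood in place 2 in MCT lungs and in place 6 in control lungs. In MCT lungs the ranges of neighbours in the order overlapped except between Egfl7 and Emcn and between Mmrn2 and Robo4. In control lungs they overlapped between Clec14a and Esam, Cd93 and Emcn, Emcn and Cldn5, and Cldn5 and Mmrn2.

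The members were also set against Cdh5 in the same library, to ask whether they differed from VE-cadherin between the groups. In that fit, made with limma on log2 CPM minus those of Cdh5, the median difference of all genes was 0.60, as the log2 fold change of Cdh5 itself enters with its sign turned, and 28.1% of genes passed higher and 0.88% lower. The same deviations of Cdh5 enter every gene of this fit, so that limma's shared variance had 83.2 degrees of freedom for Emcn, Clec14a, Esam and Egfl7 from 8 libraries, and its p-values are too small. Each gene was therefore also fitted with its own variance (6 residual degrees of freedom), a choice made after seeing the data, and 3.57% of genes then passed higher and 0.209% lower. In the limma fit Emcn, Mmrn2 and Egfl7 passed higher and Clec14a lower, and with own variances Emcn alone of the 8 members passed. An exact permutation test over the libraries, two-sided and not adjusted for the 8 members, can give no p below 0.0286 here.

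The FPKM ratio of Emcn to Cdh5 was 1.08, 2.25, 2.03 and 2.37 in MCT libraries 1 to 4, against 0.694, 0.538, 0.442 and 0.558 in control libraries 1 to 4. The groups did not overlap, and the log2 difference was 1.75 (SE 0.29 and adjusted p = 0.0431 with its own variance, limma adjusted p = 1.54e-06, exact permutation p = 0.0286). For Clec14a the ratio was 0.322, 0.69, 0.603 and 0.939 in MCT libraries 1 to 4, against 1.51, 1.55, 1.81 and 1.81 in control libraries 1 to 4. The groups again did not overlap, but the log2 difference of -1.48 passed in limma's fit (adjusted p = 6.18e-05) and not with its own variance (SE 0.33, 95% interval -2.29 to -0.67, adjusted p = 0.0593; exact permutation p = 0.0286).

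Mmrn2 stood at 0.177 to 0.507 of Cdh5 in MCT libraries and at 0.167 to 0.2 in control libraries, with a log2 difference of 0.96. It passed in limma's fit (adjusted p = 0.00938) but not with its own variance (SE 0.36, adjusted p = 0.113; exact permutation p = 0.0857), and in limma's fit not without MCT 2 (adjusted p = 0.062) or MCT 4 (adjusted p = 0.051). Egfl7 stood at 2.28 to 5.81 times Cdh5 in MCT libraries and at 2 to 2.49 times in control libraries, with a log2 difference of 0.79. It passed in limma's fit (adjusted p = 0.0312) but not with its own variance (SE 0.31, adjusted p = 0.122; exact permutation p = 0.0571), and in limma's fit not when any library but MCT 1 was left out (adjusted p of 0.0508 to 0.148).

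Esam and Cd93 were not distinguished from Cdh5. The log2 difference from Cdh5 was 0.14 for Esam (95% interval -0.43 to 0.71 and adjusted p = 0.659 with its own variance in limma's model) and 0.11 for Cd93 (95% interval -0.81 to 1.02, adjusted p = 0.837). Both turned negative when Tie1, an endothelial receptor outside the members, took the place of Cdh5 (-0.19 for Esam and -0.22 for Cd93). Without MCT 1, Cd93 passed higher relative to Cdh5 in limma's fit with shared variance (0.47, adjusted p = 0.026). MCT 1 had the lowest ratio of its group for Emcn, Clec14a, Esam, Cd93, Mmrn2 and Egfl7, and the highest level of Cdh5. All of these ratios divide by that same Cdh5 value, so they are not separate observations. Cldn5 (-1.94, SE 2.48) and Robo4 (-1.70, SE 1.86) could not be placed, each with 1 library at 0.

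**Figure D3:**
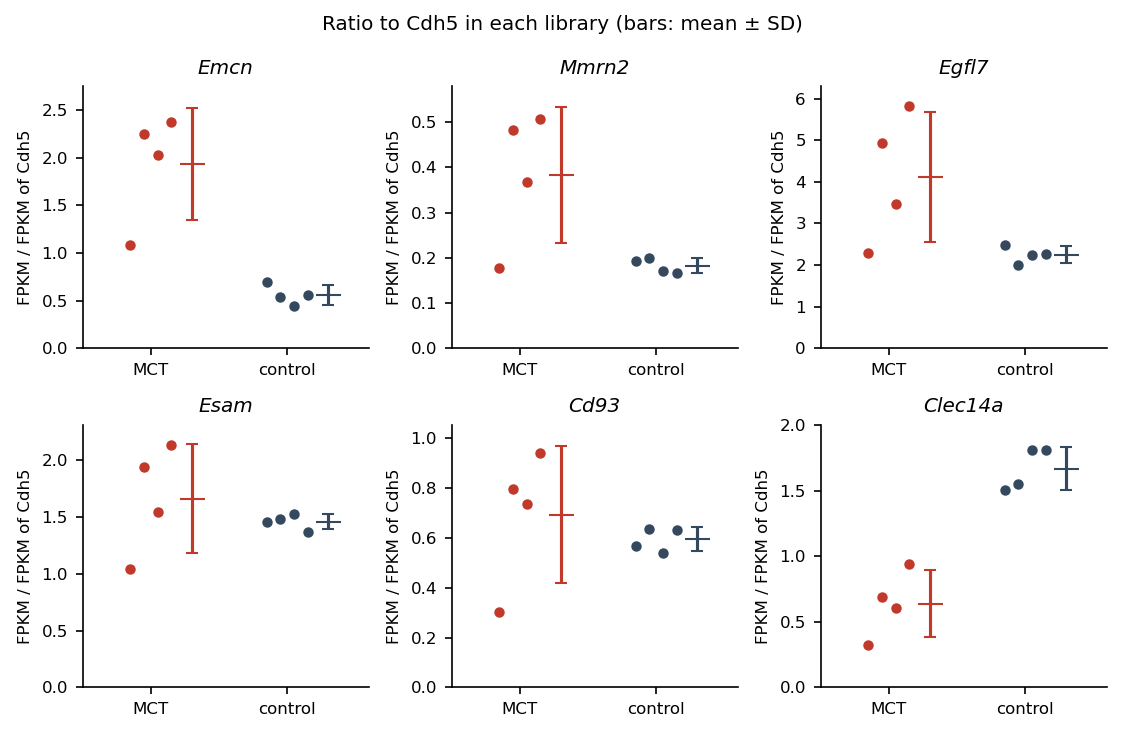
FPKM of 6 members divided by the FPKM of Cdh5 in the same library (points; bars are mean and SD, n = 4 per group; linear axes from 0). The Emcn ratio is 1.08 or more in all MCT libraries and 0.694 or less in all control libraries, the Clec14a ratio is 0.939 or less in MCT libraries and 1.51 or more in control libraries, and MCT 1 is the lowest MCT point in each panel. All panels divide by the same Cdh5 values, so they are not separate observations of MCT 1.

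Genes that act with the members, relatives of the members and other endothelial surface genes were counted from 4 lists. The lists held 63 genes, called partners for short, of which 61 were tested. Of these, 6 were higher (9.84%) and 17 lower (27.9%) in MCT lungs, against 11% and 9.45% of all genes tested, and their median log2 fold change was -0.16. The lists were chosen with earlier results of these data known, so the larger share of lower genes may reflect that choice. The count of higher genes depended on single libraries: it was 10 without MCT 1, and 3 without MCT 3, MCT 4, control 1, control 2 or control 3. The count of lower genes stayed between 14 and 19 when any 1 library was left out.

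Of 18 partners of VE-cadherin at adherens junctions, 6 were lower, 1 was higher and 11 did not pass, with a median log2 fold change of -0.18. Ptprb, the phosphatase VE-PTP that binds VE-cadherin, fell most, to 7.15 ± 1.04 FPKM in MCT lungs, against 33 ± 11 FPKM in control lungs (SD, n = 4 each; log2 fold change -2.21, edgeR adjusted p = 0.00056). Of the catenins, which bind the inner end of cadherins, p120-catenin (Ctnnd1, -0.41) and plakoglobin (Jup, -0.47) fell. The other two did not pass: beta-catenin (Ctnnb1), which had the highest mean of the list over all 8 libraries, at -0.14 (adjusted p = 0.38), and alpha-catenin (Ctnna1) at -0.052 (adjusted p = 0.676). Rasip1 (-0.77) and Afdn (-0.56), which act with the GTPase RAP1 at junctions, and Heg1 (-0.68), a receptor of the cerebral cavernous malformation complex, also fell. Pdcd10, another protein of that complex, was the gene that rose (0.41, adjusted p = 0.0217), a call lost without MCT 3, MCT 4, control 1, control 2 or control 3 (adjusted p of 0.0511 to 0.0734).

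Of 14 tight junction partners, 4 were lower, 1 was higher and 9 did not pass, with a median of -0.32. Jam2, a junctional adhesion molecule of endothelium, fell to 25.9 ± 2.49 FPKM in MCT lungs, against 58 ± 8.91 FPKM in control lungs (SD, n = 4 each; log2 fold change -1.16, edgeR adjusted p = 0.000396), while its relative Jam3 rose to 23.4 ± 1.9 FPKM, against 15.8 ± 2.08 FPKM in control lungs (0.56, adjusted p = 0.00663). The third of these molecules, F11r, which epithelium also carries, did not pass (log2 fold change -0.040, adjusted p = 0.892). The junction scaffold and polarity genes Magi1 (-0.71), Pard3 (-0.62) and Patj (-0.40) fell. The call for Patj (adjusted p = 0.0453) was lost under 10 of the 19 alternatives, among them the leaving out of MCT 2, 3 or 4 or of control 2, 3 or 4 (adjusted p of 0.068 to 0.117).

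Of 12 tested ligands and related receptors, 2 were higher, 1 was lower and 9 did not pass, with a median of 0.076. Mmrn1, the relative of Mmrn2 that platelets and lymphatic endothelium carry, rose to 9.11 ± 2.36 FPKM in MCT lungs, against 3.43 ± 1.31 FPKM in control lungs (SD, n = 4 each; log2 fold change 1.41, edgeR adjusted p = 0.0108). Thbd, thrombomodulin, the relative of Clec14a and Cd93 that restrains clotting, fell to 192 ± 16.7 FPKM in MCT lungs, against 313 ± 54.4 FPKM in control lungs (-0.70, adjusted p = 0.00468). The growth factor Vegfc rose by 0.73 (adjusted p = 0.0307), a call lost without MCT 2, MCT 3, MCT 4, control 1, control 2 or control 3 (adjusted p of 0.0596 to 0.0865). Igfbp7, a ligand of CD93 and the most abundant of the list, did not pass (0.092, adjusted p = 0.551).

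Of 17 other endothelial surface genes, 6 were lower, 2 were higher and 9 did not pass, with a median of -0.22. Plvap, the diaphragm protein of endothelial vesicles and pores, fell to 316 ± 76.6 FPKM in MCT lungs, against 952 ± 161 FPKM in control lungs (SD, n = 4 each; log2 fold change -1.59, edgeR adjusted p = 0.00068). The adrenomedullin receptor fell in both of its chains: Calcrl stood at 24.7 ± 6.53 FPKM in MCT lungs and 76.5 ± 16.7 FPKM in control lungs (-1.63, adjusted p = 0.00157), and Ramp2 at 298 ± 32.5 FPKM in MCT lungs and 559 ± 50.5 FPKM in control lungs (-0.91, adjusted p = 0.000666). Eng, endoglin, a co-receptor for bone morphogenetic proteins, fell by 0.67 (log2), Plxnd1, a semaphorin receptor, by 0.49 and Mcam by 0.34. The Plxnd1 call was lost without MCT 2, control 1 or control 3 (adjusted p of 0.0501 to 0.0566) and the Mcam call without MCT 2 or MCT 3 (0.0508 and 0.0528). The sialomucin gene Cd34 rose (0.71, adjusted p = 0.0287), to 88.3 ± 20.5 FPKM in MCT lungs, against 53.7 ± 10.2 FPKM in control lungs, but its call was lost without any of MCT 2, 3 or 4 or control 1, 3 or 4 (adjusted p of 0.0533 to 0.0765). Podxl, a sialomucin gene of the same family as Cd34, did not pass and pointed the other way (-0.28, adjusted p = 0.143). Apold1, an early response gene of endothelium, rose by 1.56 (adjusted p = 0.0181), a call lost without control 2 (adjusted p = 0.0526), without control 4 (0.0535) and without both MCT 1 and control 1 (0.0773).

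**Figure D4:**
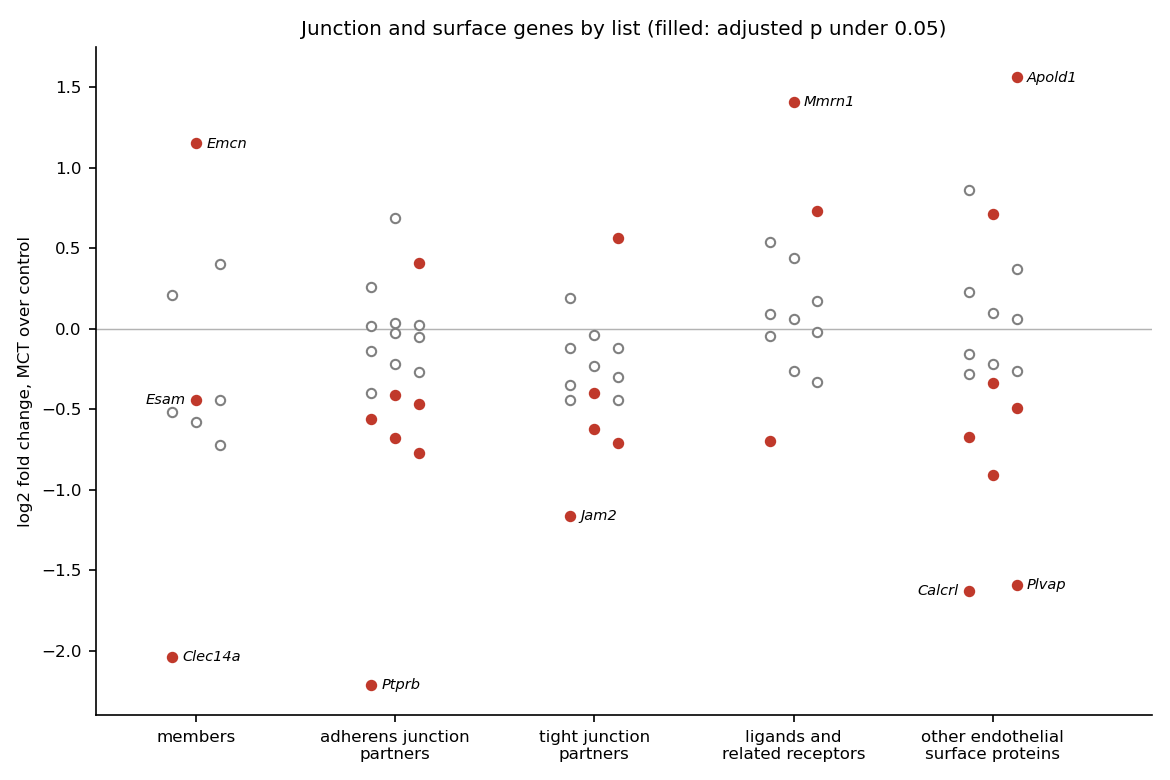
Log2 fold change, MCT over control, of each tested gene in 5 groups, the 9 members and the 4 partner lists; filled points passed edgeR's test at an adjusted p under 0.05, open points did not, and sideways offsets carry no value. Points run from -2.21 (Ptprb) to 1.56 (Apold1), and Clec14a and Emcn lie at -2.04 and 1.15 among the members.

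Genes of other cells that carry some of the members are given for comparison. Their counts stand beside 11% higher and 9.45% lower over all genes tested. Of 7 lymphatic endothelial genes, 3 were higher and 1 was lower, with a median log2 fold change of 0.80, and their summed level was 667 to 1048 FPKM in MCT lungs and 502 to 607 FPKM in control lungs. The chemokine gene Ccl21 had the largest change of the list, at 438 ± 180 FPKM in MCT lungs and 64.3 ± 12 FPKM in control lungs (SD, n = 4 each; log2 fold change 2.77, edgeR adjusted p = 0.000565). Without Ccl21 the sum was 355 to 409 FPKM in MCT lungs and 429 to 557 FPKM in control lungs. Prox1, which defines lymphatic endothelium, rose to 0.517 ± 0.205 FPKM in MCT lungs, against 0.138 ± 0.0746 FPKM in control lungs (SD, n = 4 each; edgeR adjusted p = 0.0201), and Mmrn1 was the third that rose. Lyve1, a hyaluronan receptor of lymphatic and some lung endothelium and of macrophages, had the smallest p and fell to 37.8 ± 5.22 FPKM in MCT lungs, against 123 ± 16.3 FPKM in control lungs (edgeR adjusted p = 0.000228). Pdpn, also a gene of alveolar epithelium, had the highest mean over all 8 libraries and did not pass (log2 fold change -0.12). The summed level of 7 leukocyte genes was 527 to 691 FPKM in MCT lungs and 396 to 566 FPKM in control lungs, with Cd53 the 1 of 7 that passed (log2 fold change 0.77, edgeR adjusted p = 0.0131) and Laptm5 the most abundant (176 ± 23.7 FPKM in MCT lungs and 134 ± 17.5 FPKM in control lungs, SD, n = 4 each). The sum of 10 myeloid genes, led by Lyz2, was 10035 to 18603 FPKM in MCT lungs and 12465 to 17117 FPKM in control lungs.

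Epithelial genes summed to 18149 to 21917 FPKM in MCT lungs and 24548 to 32828 FPKM in control lungs, and 2 of 8, Krt18 (log2 fold change -0.67) and Sftpc (-0.51), were lower by edgeR's test. Over all genes tested, 9.45% were lower. Genes of the muscle cells and pericytes around vessels summed to 685 to 1025 FPKM in MCT lungs and 668 to 879 FPKM in control lungs. Tagln was the most abundant (458 ± 75.5 FPKM in MCT lungs and 384 ± 60.5 FPKM in control lungs, SD, n = 4 each). Of the 7 genes 2 were lower, Notch3 (-0.60) and Rgs5 (-1.50, edgeR adjusted p = 0.003). Rgs5 stood at 10.3 ± 3.51 FPKM in MCT lungs and 29.2 ± 6.43 FPKM in control lungs (SD, n = 4 each). Among ciliated cell genes, Tppp3, the most abundant, did not pass edgeR's test (log2 fold change -0.39, adjusted p = 0.211). The part of these cell types in the values of the members was not tested.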

How the data were processed

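RNA of lung tissue was sequenced in 4 MCT and 4 control libraries after selection on oligo(dT) beads, per the labels' protocols. Per the submitters' processing notes, the authors used cutadapt 1.9, HISAT2 2.0.4, StringTie 1.3.4d, edgeR and the build Rnor_6.0, in roles and with settings that are not stated. The deposited table gives, per the file headers, an estimated count and an FPKM value for each gene in each library. The deposited estimated counts are whole numbers, and their low values fall at steps of about 3.67, so 1 read pair was worth about 3.67 units. The library totals, 39.8 to 66.6 M units, correspond to roughly 10.8 to 18.1 M read pairs, and the test's error comes from the spread between libraries.

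The counts were tested with edgeR 4.0.16 (R 4.3.3): filterByExpr with a minimum count of 10, which left 16715 genes, TMM scaling, and the robust quasi-likelihood test, two-sided. The threshold was an adjusted p under 0.05 (Benjamini-Hochberg, over all genes tested). Fold changes are MCT over control. Levels relative to Cdh5 were fitted with limma 3.58.1 on log2 CPM (prior count 2) minus those of Cdh5, and again with the variance of each gene on its own, added after seeing the data. DESeq2 1.42.0, other scalings and filters, limma on log2(FPKM + 0.5), a replicate block and leaving out libraries were tried as alternatives. Sums of the Cldn5 and Cdc45 rows and of the Robo4 and LOC100911068 rows were added after seeing the data. The edgeR test was first tried on simulated data with known changes. Samples were grouped by their titles, and no 2 libraries were duplicates.

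Members were matched by gene name. The members and the gene lists were chosen with earlier results of these data known. The text names every member. Of each partner list it names the called genes with a mean of at least 5 FPKM in the higher group and the tested gene with the highest mean over all libraries, and of each marker list the called gene of smallest p and the one with the highest mean. Other genes of these lists are named as further examples, chosen after their values were seen. Promoter and microRNA sequences are from RefSeq on GRCr8 and share no coordinates with the table.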

Additional observations from a re-analysis of the deposited data

Results flagged for a closer look

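Among 90 sets of 4 libraries examined for a library far from the other 3, 3 were set apart by a gap to the nearest library above Dixon's 95% limit for the share of the whole range, where chance alone would set apart about 4.5, or 1 in 20. In control lungs Robo4 stood at 4.34 FPKM in control 3, against 3.78 to 3.87 FPKM in the other control libraries (gap 0.839 of the range). In control lungs Cd34 stood at 38.5 FPKM in control 3, against 57 to 60 FPKM in the others (0.862). The summed level of muscle and pericyte genes was 879 FPKM in control 1, against 668 to 700 FPKM in the other control libraries (0.848).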

How the results depend on the processing

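Depth limits Robo4 most among the members, with at most 172 read pairs in a library. Of 769 values of single genes recomputed under alternatives, 699 kept their direction and their side of the threshold, 50 lost the call, 9 gained one and 11 changed sign. The calls for Clec14a, Emcn and Esam held under all 19 alternatives. Members called higher numbered 1, and 2 under DESeq2 or with MCT 1 and control 1 both left out. Members called lower numbered 2, and 4 under DESeq2. The 3 called members were joined by Cdh5, Cd93 and Mmrn2 under DESeq2. With the Cldn5 and Cdc45 rows summed, the sum was counted in place of Cldn5, and 3 were then lower. The Cdc45 row alone was already called lower with the same log2 fold change of -0.59 (edgeR adjusted p = 0.00646). It held most of the sum, so the count of 3 adds no call of Cldn5 itself.

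With 1 library left out, genes called higher ranged from 1191 to 1946 and lower from 975 to 1730 (1845 and 1579 with all libraries), the lowest of each without MCT 2. Under the same settings members called higher ranged from 1 to 2 and lower from 2 to 3, partners higher from 3 to 10 and lower from 14 to 19, and members higher relative to Cdh5 from 1 to 4 and lower from 1 to 1. Members higher relative to Cdh5 numbered 3, and lower 1. With each gene's own variance in limma's model they numbered 1 and 0, since the shared variance no longer entered, and Clec14a then had an adjusted p of 0.0593. The count of higher members was 1 without MCT 2 or without MCT 4. The cause of these moves was not tested.

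The values that changed sign belong to genes that had not passed with all libraries. The log2 fold change of F11r, -0.040 with all libraries, was 0.053 without MCT 2, 0.0058 without MCT 3, 0.0085 without control 1 and 0.063 without control 3, and -0.14 without control 4. Relative to Cdh5, Cldn5 ranged from -2.99 without MCT 4 to 0.47 without MCT 2, its library at 0. Robo4 ranged from -2.40 without MCT 2 to 0.16 without MCT 4, its library at 0, and was 0.32 with its 2 rows summed. Against Tie1 in place of Cdh5, Esam was -0.19 and Cd93 was -0.22, whose cause was not tested. Cd93 relative to Cdh5 ran from -0.081 (MCT 4 left out) to 0.47 (MCT 1 left out), with -0.00017 when MCT 2 was left out.

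The replicate numbers showed no clear pairing of the libraries: deviations of same-numbered libraries correlated at 0.11, 0.016, -0.017 and -0.085 for numbers 1 to 4, and number 1 alone matched best with itself. Such correlations cannot exclude pairing. With the replicate number as a block, 1436 genes were higher and 1271 lower, the members gave 1 and 2, and the partners 4 and 16. Under the block the calls for Cd34 (edgeR adjusted p = 0.0593), Mcam (0.0642), Apold1 (0.0724) and Patj (0.093) did not hold. Pecam1 could not take the place of Cdh5, since no row carried its name.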
